A study of Mus musculus with 24 samples.

Results

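Steroid and nuclear hormone receptors turn small lipophilic signals into changes of transcription. Members of this class were followed through the series and chosen by symbol: the estrogen receptors Esr1, Esr2 and Gper1, and Esrra, Nr3c1, Rara, Rxra, Vdr and Thra. They are 9 of the 55385 genes in the table. Of these, 7 had enough counts to be tested, and Esr2 and Gper1 did not. RNA came from P815, a mouse mastocytoma line, in 8 groups of 3 libraries: 4 arms, each with β-estradiol (E2) and without it. The SH arm carried a vector with a short hairpin RNA against Esr1 (groups SH_E2 and SH). The ICI arm received the estrogen receptor degrader ICI-182780, also called fulvestrant (ICI_E2 and ICI), and the Tamo arm the selective modulator tamoxifen (Tamo_E2 and Tamo). The NC arm carried a negative control vector (NC_E2 and NC). Treatment lasted 24 h in the 6 groups that received E2 or an antiestrogen, and no time is given for SH and NC without E2. The medium was RPMI-1640 supplemented with 10% fetal bovine serum, and serum itself carries steroid and thyroid hormones and retinoids. No dose is given, and the antiestrogen arms are not described as carrying a vector, so drug and vector cannot be told apart in a comparison of those arms with NC. Whether the SH cells are a single clone is not stated. The 3 libraries of a group are not described as separate cultures, so p-values measure the spread between these libraries, which may be technical.

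Most of these receptors are ligand-regulated transcription factors that bind short DNA repeats, often built from the half-site AGGTCA. The glucocorticoid and estrogen receptors bind as homodimers after release from heat shock protein 90 chaperones. The retinoic acid, vitamin D and thyroid hormone receptors bind as heterodimers with a retinoid X receptor, whose alpha form is the product of Rxra. ERRα, the product of Esrra, has no known natural steroid ligand and drives genes of mitochondrial metabolism, and Gper1 encodes a membrane receptor for estrogen that is not a nuclear receptor. Mast cells respond to glucocorticoids, which dampen their cytokine output, and glucocorticoid signalling is carried by the product of Nr3c1.

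Libraries held 42.1 to 68.8 M estimated counts. Genes with at least 40 estimated counts in at least 3 of the 24 libraries were tested, 14094 in all, with edgeR's quasi-likelihood test and Benjamini-Hochberg adjustment, with a threshold of 0.05 on the adjusted p. Fold changes are log2 values with their standard error, intervals are 95% intervals, and levels are FPKM, fragments scaled for transcript length and library depth, with SD over libraries where an error is given. Mast cell markers summed to 892 to 1051 FPKM in the SH arm, 628 to 831 in the ICI arm, 624 to 842 in the Tamo arm and 628 to 826 in the NC arm, with 8 of 12 over 1 FPKM on average. Lymphocyte markers summed to at most 0.38 FPKM in any library, with Ms4a1 at 0 throughout.

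Retinoic acid and glucocorticoid receptor transcripts were the most abundant of the 9, and the estrogen, vitamin D and retinoid X receptor alpha transcripts were low. Rara averaged 16.0 FPKM over the 24 libraries, with 11.8 in the lowest and 24.9 in the highest. Nr3c1 averaged 14.8 FPKM and ran from 7.41 to 21.1. These levels did not separate: Rara was the higher of the pair in 14 of 24 libraries. Esrra followed with a mean of 8.22 FPKM (5.55 to 10.7) and lay below Nr3c1 in 22 of 24 libraries. Thra, the thyroid hormone receptor alpha gene, averaged 5.58 FPKM (4.42 to 7.23) and lay below Esrra in 23 of 24. A wide gap came next, since Thra was above Vdr in 24 of 24 libraries with a median ratio of 16.6. Vdr averaged 0.328 FPKM (0.079 to 0.779), Rxra 0.328 FPKM (0.075 to 0.697) and Esr1 0.308 FPKM (0.161 to 0.520), with no settled order among them. Vdr was the higher against Rxra in 13 of 24 libraries, and Rxra against Esr1 in 8 of 24. Behind these low levels stood 26 to 267 estimated counts a library for Vdr, 32 to 273 for Rxra and 156 to 433 for Esr1.

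The whole nuclear receptor superfamily shows where these genes stand. Of 49 receptors in the table, 16 averaged 1 FPKM or more, 22 could be tested and 20 never exceeded 12 estimated counts, taken as a floor. That floor is about 3 read pairs only if 4 estimated counts stand for 1 pair, which was not tested. Rara and Nr3c1 ranked first and second. Close to them were Nr1h2, the liver X receptor beta gene, at 14.6 FPKM and Rxrb, the retinoid X receptor beta gene, at 11.4 FPKM. The next were Nr2f6 at 9.18 FPKM, Rarg at 8.56, Nr1d2 at 3.53, Nr1d1 at 3.17 and Ppard at 3.07. Nr2f1 averaged 2.50 FPKM, Nr2c1 2.29, Nr4a1 2.20, Nr2c2 2.01 and Nr4a2 1.27.

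**Figure D1:**
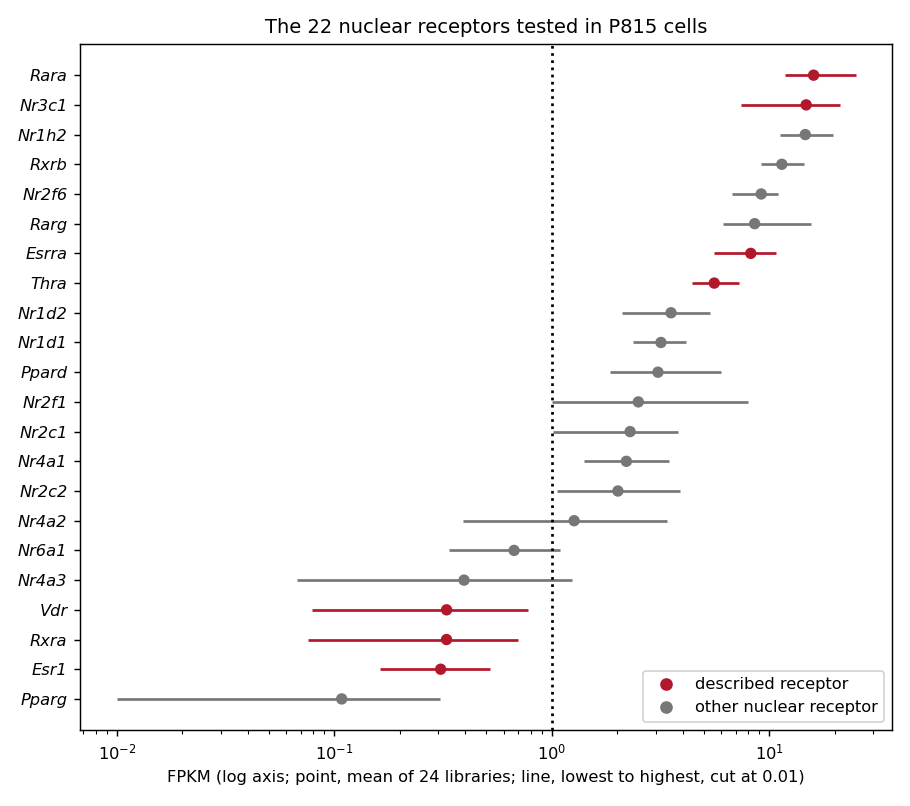
Mean FPKM over 24 libraries (points, log axis) and the range from lowest to highest library (lines, cut at 0.01) for the 22 tested nuclear receptors, with the 7 tested members in red. Rara and Nr3c1 head the list at 16.0 and 14.8 FPKM, whereas Vdr, Rxra and Esr1 lie near 0.3 FPKM.

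In most of the families a single gene made up nearly all of the transcript. Thra was at least 99.6% of the summed FPKM of Thra and Thrb in every library. Esrra was at least 99.5% of the summed FPKM of Esrra, Esrrb and Esrrg. Nr3c1 was at least 99.47% of that of Nr3c1, Nr3c2 (mineralocorticoid receptor) and Pgr (progesterone receptor). Pgr never exceeded 4 estimated counts. Esr1 was at least 84.2% of that of Esr1 and Esr2. The retinoid receptors differed from this. Rarb and Rxrg had no counts in any library, Rara was 43.6% to 79.0% of the summed RAR transcripts with Rarg as the rest, and Rxra was only 0.78% to 4.91% of the summed RXR transcripts with Rxrb as the rest.

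Each gene was checked for neighbours that could share its reads, because the strand protocol is not stated. Rxra (chromosome 2, 27676440 to 27762957, plus strand, GRCm38), Vdr (chromosome 15, 97854425 to 97910630, minus strand) and Esr1 (chromosome 10, 4611593 to 5005614, plus strand) overlap no other gene of the table. Esrra (chromosome 19, 6910977 to 6921840, minus strand) overlaps the end of Trmt112 on the opposite strand, which averaged 43.8 FPKM, and Mir6990. Rara (chromosome 11, 98927818 to 98974162, plus strand) contains Gm22061. Thra (chromosome 11, 98740638 to 98765111, plus strand) ends before the opposite-strand gene Nr1d1 in the table, but in the GENCODE M21 annotation it runs to 98769006 and overlaps Nr1d1. Esr2 (chromosome 12, 76120419 to 76177259, minus strand) overlaps Gm7862. Gper1 (chromosome 5, 139423151 to 139427800, plus strand) overlaps 3110082I17Rik on the opposite strand. The values of Esrra, Thra and Gper1 could therefore hold reads of their antisense neighbours, and those of Esr2 and Rara reads of the gene they overlap.

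The 3 low receptors Rxra, Vdr and Esr1 varied together from library to library, and the abundant Nr3c1 with them, as described further on. For the 3 low receptors the 250 bases before their start sites are shown (RefSeq, GRCm38.p6, read on the strand of the gene). Capitals mark the half-site AGGTCA or the GC box GGGCGG on either strand. The Rxra windows are chr2:27676951-27677200 and chr2:27709042-27709291 (plus strand) and the Vdr window is chr15:97908297-97908546 (minus strand). The Esr1 windows are chr10:4611739-4611988 and chr10:4709908-4710157 (plus strand).
Rxra, upstream start: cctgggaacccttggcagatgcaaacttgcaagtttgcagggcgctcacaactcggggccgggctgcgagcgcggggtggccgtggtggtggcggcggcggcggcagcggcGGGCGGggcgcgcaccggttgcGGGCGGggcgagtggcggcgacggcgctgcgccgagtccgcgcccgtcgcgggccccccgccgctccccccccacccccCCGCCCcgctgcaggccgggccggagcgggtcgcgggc
Rxra, downstream start: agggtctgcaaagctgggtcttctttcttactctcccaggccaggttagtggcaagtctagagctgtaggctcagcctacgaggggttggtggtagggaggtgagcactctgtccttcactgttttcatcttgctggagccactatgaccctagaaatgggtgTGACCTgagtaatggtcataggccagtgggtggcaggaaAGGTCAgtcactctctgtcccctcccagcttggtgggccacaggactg
Vdr: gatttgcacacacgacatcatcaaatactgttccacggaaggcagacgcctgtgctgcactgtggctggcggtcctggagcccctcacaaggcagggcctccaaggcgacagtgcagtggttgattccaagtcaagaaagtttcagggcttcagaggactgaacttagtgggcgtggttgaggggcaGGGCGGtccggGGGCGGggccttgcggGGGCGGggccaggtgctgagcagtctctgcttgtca
Esr1, upstream start: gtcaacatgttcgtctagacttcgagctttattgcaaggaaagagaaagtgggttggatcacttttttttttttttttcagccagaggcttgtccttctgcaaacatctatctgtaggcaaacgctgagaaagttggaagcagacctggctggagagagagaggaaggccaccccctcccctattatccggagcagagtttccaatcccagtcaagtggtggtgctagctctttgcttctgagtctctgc
Esr1, downstream start: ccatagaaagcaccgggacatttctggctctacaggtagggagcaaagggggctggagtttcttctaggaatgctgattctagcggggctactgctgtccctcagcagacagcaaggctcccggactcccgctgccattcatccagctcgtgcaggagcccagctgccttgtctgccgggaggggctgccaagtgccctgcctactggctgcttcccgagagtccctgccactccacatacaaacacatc

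The windows have different base composition. The upstream Rxra window is 81.2% G and C with 40 CpG dinucleotides and 3 GC boxes, against a median of 52.4% and 6 CpG over 32851 promoters of the same table. The downstream Rxra window is 55.2% G and C, has 1 CpG, and holds 2 half-sites and no GC box. The Vdr window holds 3 GC boxes and no half-site, and neither motif occurs in the Esr1 windows. A GC box occurs in 32.7% of all promoter windows of this length and the half-site in 14.0%. The palindrome of the estrogen response element, in its full form, occurs in 0.06% of them and in none of the windows shown.

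Esr1, the target of the hairpin, was examined first in the SH arm. It measured 0.254, 0.181 and 0.210 FPKM in SH_E2 and 0.347, 0.227 and 0.260 in SH. In NC_E2 it measured 0.389, 0.319 and 0.234 FPKM, and in NC 0.404, 0.435 and 0.187. The lowest of these 12 libraries was SH_E2 replicate 2, the next was NC replicate 3, and the arms overlapped. The fitted difference of SH over NC was -0.48 ± 0.25 (interval -0.98 to 0.01, edgeR adjusted p = 0.204), lower in 5 of 6 pairs of libraries with the same number. Over 35 alternative fits by edgeR, DESeq2 or limma its adjusted p ran from 0.0622 to 0.402. None passed, the fit with the replicate number as a block included. An exact permutation test on log2(FPKM + 0.1), with labels exchanged within each E2 condition, gave -0.28 (two-sided p = 0.145, smallest possible 0.005). Without NC replicate 3 the same exact test gave -0.43 (p = 0.02). A sign-flip test over the 6 pairs gave -0.28 (exact p = 0.156, smallest possible 0.0312). The knockdown named in the labels was thus not resolved from the spread between libraries in the transcript level, and SH stands below for the libraries labelled SH. In the fit without the block that spread includes the differences by replicate number given further on.

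The other estrogen receptors were at the limit of detection. Esr2 had 24 estimated counts over all 24 libraries, with 0 in 20 of them and at most 8 in any. Gper1 had 60 in all, with 0 in 13 libraries and at most 8 in any. Both lie under the floor of 12 estimated counts in every library, so no fold is given. Of the Gper1 counts, 36 fell in the SH arm, 8 in the ICI arm, 11 in the Tamo arm and 5 in the NC arm. Gper1 counts were present in 5 of 6 SH libraries and in 2 of 6 NC libraries. Of the Esr2 counts, 20 fell in the SH arm, 4 in the NC arm and 0 in the ICI and Tamo arms. These splits were not compared with those of other genes under the floor.

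Rxra was the single tested receptor that passed in the SH arm. It measured 0.697, 0.538 and 0.561 FPKM in SH_E2 and 0.638, 0.664 and 0.405 in SH. In NC_E2 it measured 0.276, 0.283 and 0.143 FPKM, and in NC 0.297, 0.422 and 0.145. Only NC replicate 2 reached into the range of the SH arm, and Rxra was higher in SH in 6 of 6 pairs. The rise was 1.11 ± 0.34 on the log2 scale (edgeR adjusted p = 0.0249), or 2.16-fold with an interval of 1.36 to 3.42. With the replicate number as a block it was 1.20 (adjusted p = 0.00031). Without E2 the estimate was 0.92 ± 0.48 (adjusted p = 0.293; 0.0274 with the block), and with E2 it was 1.30 ± 0.48 (adjusted p = 0.110; 0.00316 with the block). The call over both conditions rests on several single libraries: the adjusted p was 0.0696 without NC replicate 3, 0.0679 without NC_E2 replicate 3, 0.0564 without SH replicate 2 and 0.0523 without SH_E2 replicate 1, with estimates of 0.94 to 1.05. On replicates 2 and 3 alone it was 1.10 with an adjusted p of 0.190.

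The rise did not make Rxra a major retinoid X receptor transcript. Rxra was 4.35% ± 0.60 of the summed RXR transcripts in the SH arm and 2.31% ± 1.13 in the NC arm (SD, n = 6 each). Rxrb averaged 12.8 ± 1.27 FPKM in the SH arm and 11.3 ± 1.68 in the NC arm, a difference of 0.12 ± 0.10 on the log2 scale (edgeR adjusted p = 0.435). In the ICI arm Rxra was 2.25% ± 0.91 of the sum, and in the Tamo arm 1.97% ± 0.79.

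Vdr, the receptor of active vitamin D and a partner of retinoid X receptors, lay higher in SH in 6 of 6 pairs without passing. It measured 0.499, 0.363 and 0.250 FPKM in SH_E2 and 0.779, 0.464 and 0.498 in SH. In NC_E2 it measured 0.277, 0.262 and 0.193 FPKM, and in NC 0.531, 0.393 and 0.164. The arms overlapped, with the highest level in SH replicate 1 and the lowest in NC replicate 3. The difference was 0.58 ± 0.33 (interval -0.07 to 1.24, edgeR adjusted p = 0.250), and with the replicate block 0.62 (adjusted p = 0.0408).

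The abundant receptors differed less between the arms. Nr3c1 (chromosome 18, 39410545 to 39519421, minus strand), which overlaps no other gene of the table, averaged 17.4 ± 2.88 FPKM in the SH arm and 13.8 ± 2.85 in the NC arm. That is a difference of 0.28 ± 0.18 (edgeR adjusted p = 0.331), higher in 6 of 6 pairs. Rara averaged 14.7 ± 2.86 FPKM in the SH arm and 15.7 ± 2.51 in the NC arm (-0.15 ± 0.18, adjusted p = 0.612). Thra averaged 5.41 ± 0.92 FPKM and 5.86 ± 0.87 in these arms (-0.18 ± 0.12, adjusted p = 0.351). Esrra averaged 7.64 ± 1.71 FPKM in the SH arm and 8.15 ± 1.12 in the NC arm (-0.15 ± 0.18, adjusted p = 0.624). Esrra lies on chromosome 19, whose 427 genes with a mean of at least 1 FPKM had a median log2 difference of -0.27 between SH and NC, computed on arm means with 0.1 FPKM added. Medians of the other chromosomes lay between 0.02 and 0.16, and the part of this shift in the Esrra value was not tested.

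The counts of receptors that passed were set beside those of all tested genes. In SH over NC, 1 of the 7 passed (14.3%), against 20.0% of all tested genes, and the median of the 7 was -0.15, against 0.00 over all genes. With the replicate block 2 of the 7 passed, against 33.4% of all genes. Within the E2 conditions 0 of 7 passed in either, against 8.32% of all genes without E2 and 8.83% with it. At an unadjusted p under 0.05 there were 0 of 7 without E2, against 20.6% of all genes, and 1 of 7 with it, against 21.0%. In those conditions the block gave 1 of 7 in each, against 19.3% of all genes without E2 and 20.0% with it. DESeq2 called 0 in both conditions, and limma on log2(FPKM + 1) called 0 without E2 and 1 with it, Rxra. A test of any difference among the 8 groups called 0 of 7, against 10.6% of all genes, with 1 of 7 at an unadjusted p under 0.05, against 19.6% of all genes. For that test the block called 2 of 7 (Rxra and Vdr) against 23.1% of all genes, and both DESeq2 and limma on log2(FPKM + 1) called Rxra.

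**Figure D2:**
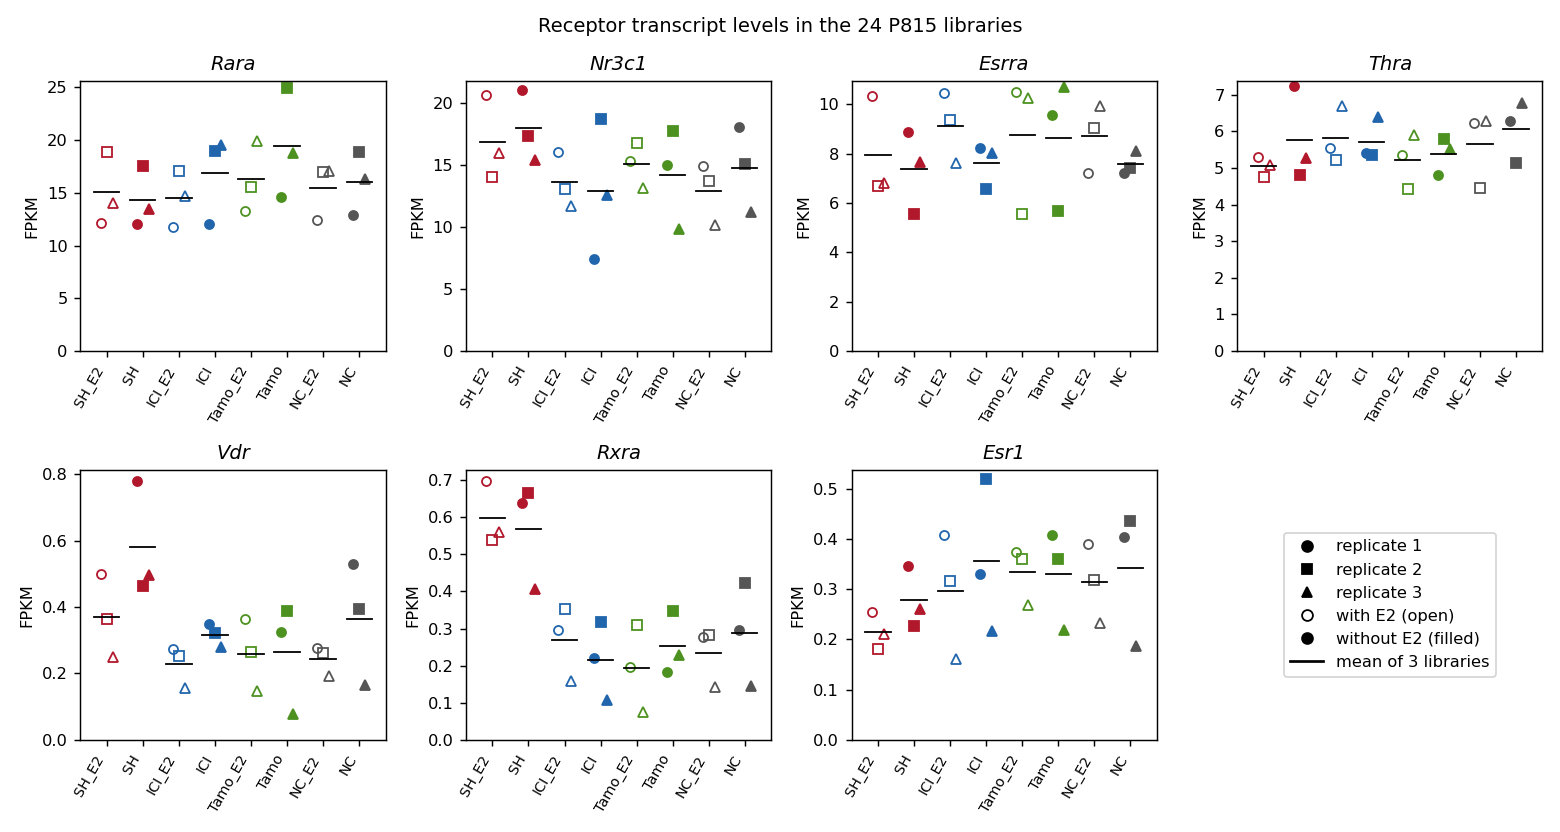
FPKM of the 7 tested receptors in each of the 24 libraries (points, shaped by replicate number, open with E2) and the mean of each group of 3 (bars). Rxra lies between 0.405 and 0.697 FPKM in the SH arm and at or below 0.422 elsewhere, with NC replicate 2 alone inside the SH range among the NC libraries.

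The partners and known targets of these receptors were counted in the same comparison, where 20.0% of all genes passed and the median was 0.00. With the replicate block 33.4% of all genes passed. Among the other nuclear receptors, Nr2f1, an orphan receptor of the COUP family, rose by 1.30 ± 0.35 (edgeR adjusted p = 0.0118). It averaged 4.70 FPKM in the SH arm and 1.83 in the NC arm. The heme receptor genes Nr1d1 and Nr1d2, which repress transcription in the circadian clock, fell by 0.39 and by 0.58 (adjusted p = 0.00714 and 0.0205). Nr1d2 missed the threshold without NC replicate 2, NC_E2 replicate 2 or SH_E2 replicate 1 (adjusted p = 0.0516 to 0.0623). With Rxra, 2 of 22 tested superfamily genes thus rose and 2 fell, with a median of -0.11. With the block 5 of the 22 rose and 4 fell, against 33.4% of all genes passing. Those added were Vdr, Rarg, Nr2c1, Nr6a1 and Pparg.

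Chaperones that hold steroid receptors in a ligand-ready state moved in both directions, 2 rising and 3 falling of 15 tested. Their median was -0.08, and 20.0% of all genes passed. Hsp90ab1, the constitutive cytosolic HSP90, averaged 1017 ± 187 FPKM in the SH arm and 1308 ± 118 in the NC arm and fell by 0.41 ± 0.12 (edgeR adjusted p = 0.0152). Stip1, which couples HSP70 to HSP90, fell by 0.60, and the immunophilin gene Ppid fell by 0.30. Dnajb1, an HSP40 cochaperone, rose by 0.42, at 21.8 ± 1.36 FPKM in the SH arm and 15.7 ± 1.01 in the NC arm.

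Coregulators, which receptors recruit to activate or silence genes, also split, with 2 rising and 2 falling of 20 tested. Their median was 0.06, and 20.0% of all genes passed. The coactivator Ncoa1 rose by 0.99 ± 0.25 and averaged 2.18 FPKM in the SH arm and 1.05 in the NC arm (edgeR adjusted p = 0.00692). The coactivators Ncoa3 and Pprc1 fell by 0.55 and by 0.58 (adjusted p = 0.0398 and 0.0268), calls that were lost on leaving out 8 and 4 single libraries in turn. For Ncoa3 these were NC replicates 2 and 3, NC_E2 replicates 2 and 3, SH replicates 1 and 3 and SH_E2 replicates 1 and 2 (adjusted p = 0.0624 to 0.0973). For Pprc1 they were NC replicate 2, NC_E2 replicate 3, SH replicate 2 and SH_E2 replicate 3 (0.0589 to 0.0826).

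Glucocorticoid receptor targets changed in both directions: 4 of 14 tested rose and 3 fell, against 20.0% of all genes passing. Their median was 0.14. Dusp1, a phosphatase that quenches MAP kinases, averaged 2.70 ± 1.07 FPKM in the SH arm and 10.4 ± 3.17 in the NC arm and fell by 1.99 ± 0.30 (edgeR adjusted p = 8.12e-05). Klf9, a target of both glucocorticoid and thyroid hormone receptors, fell by 1.25 ± 0.15 (adjusted p = 6.61e-06). Errfi1, a feedback inhibitor of the EGF receptor, rose by 0.81, and Nfkbia, the inhibitor of NF-κB, rose by 0.76. Hsd11b1, counted below with ligand metabolism, encodes an enzyme that regenerates active glucocorticoid inside cells. It averaged 28.4 ± 5.54 FPKM in the SH arm and 9.64 ± 1.93 in the NC arm and rose by 1.50 ± 0.21 (adjusted p = 2.31e-05).

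Targets of the other receptors changed singly, in a comparison where 20.0% of all genes passed. Ccnd1, the cyclin D1 gene, was the single estrogen receptor target of 9 tested that passed, and fell by 1.35 ± 0.10 with 48.2 ± 6.50 FPKM in the SH arm and 118 ± 10.9 in the NC arm (edgeR adjusted p = 2.2e-08). The median of the 9 was -0.15, and with the block 2 rose and 2 fell, against 33.4% of all genes passing. Spp1, the osteopontin gene and 1 of 3 vitamin D receptor targets tested, fell by 2.23 ± 0.21 with 193 ± 66.1 FPKM in the SH arm and 876 ± 114 in the NC arm (adjusted p = 3.17e-07). Thyroid hormone targets had 1 riser, Me1 (malic enzyme, 0.60), and 1 faller, Klf9, of 5. Of 14 ERRα targets, 2 rose and 1 fell: Idh3a, a subunit of isocitrate dehydrogenase, fell by 0.58, whereas Sirt3 and Acadm rose by 0.34 and by 0.28. The median of the 14 was 0.00, and with the block 4 rose and 2 fell, against the same 33.4%. Sirt3 missed the threshold without NC replicate 1, NC replicate 2, NC_E2 replicate 2 or SH replicate 1 (adjusted p = 0.0561 to 0.0699), and Acadm in 17 of the 24 fits that left out 1 library (up to 0.118).

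Among 16 genes of ligand metabolism and transport, 1 rose (Hsd11b1) and 1 fell, with a median of 0.00. With the block 2 rose and 3 fell, against 33.4% of all genes passing. The faller was Stra6, the retinol uptake receptor and also the single change among 5 retinoic acid targets, which had 4 estimated counts over the 6 SH libraries, with 0 in 5 of them, and 295 over the 6 NC libraries. No fold is given for Stra6, since the SH libraries lie under the floor. It met the count filter only through the other arms, and its call in both lists carries that limit. Mast cell markers moved with the arm as well, 2 rising and 4 falling of 12, against 20.0% of all genes passing. The carboxypeptidase gene Cpa3 rose by 1.18 and the tryptase gene Tpsab1 fell by 2.60. The macrophage marker Lyz2 rose by 1.42, at 11.2 FPKM in the SH arm and 4.05 in the NC arm, and summed macrophage markers were 29.7 to 36.1 FPKM in SH and 22.4 to 26.0 in NC. Their part in the receptor and target values was not tested.

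**Figure D3:**
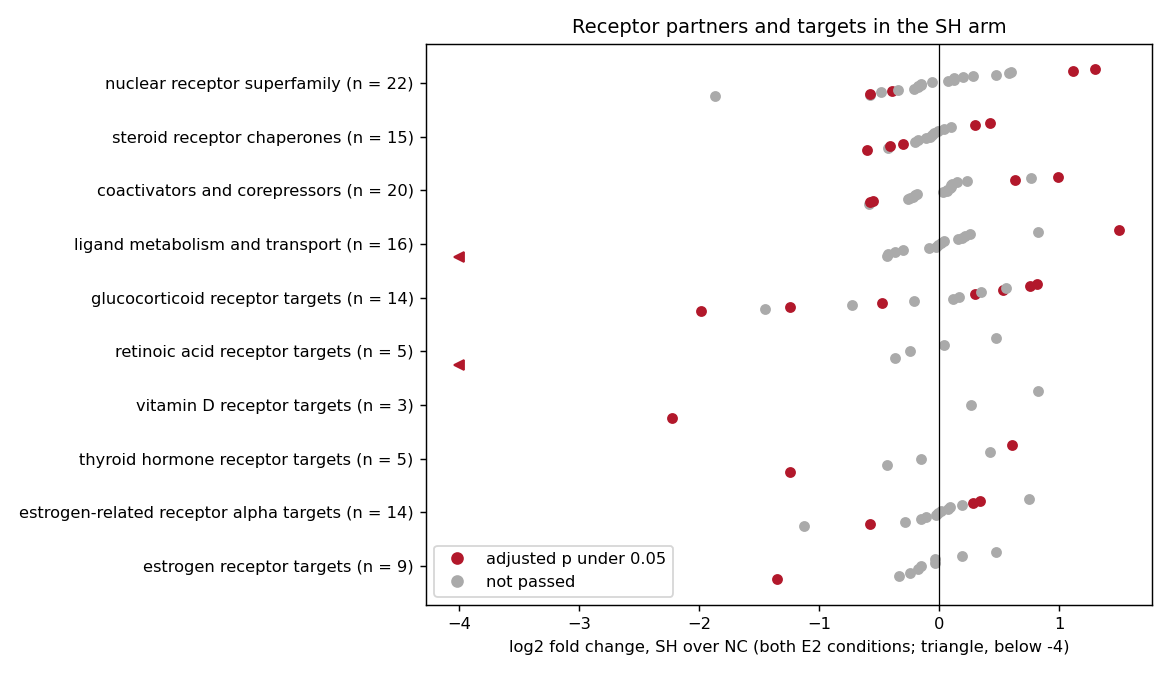
Fitted log2 fold change of SH over NC, both E2 conditions together, for each tested gene of the receptor, partner and target lists (red, edgeR adjusted p under 0.05; triangles, Stra6 below -4). Glucocorticoid receptor targets hold 7 passing genes of 14, spread on both sides of 0, against 20.0% of all tested genes passing.

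No receptor transcript passed in either antiestrogen arm. For ICI over NC 0 of the 7 passed, against 0.00710% of all genes, and estimates ran from -0.14 to 0.04. For Tamo over NC 0 of the 7 passed, against 0% of all genes, and estimates ran from -0.21 to 0.18. DESeq2, limma and the blocked fit also called 0 of 7 in both. At an unadjusted p under 0.05 there were 0 of 7, against 1.18% of all genes for ICI and 2.16% for Tamo. Esr1 measured 0.408, 0.317 and 0.161 FPKM in ICI_E2 and 0.331, 0.520 and 0.217 in ICI. In Tamo_E2 it measured 0.374, 0.360 and 0.269 FPKM, and in Tamo 0.408, 0.360 and 0.219. The ICI arm spanned the range of NC and the Tamo arm lay inside it. The difference for Esr1 was -0.02 (interval -0.51 to 0.48) for ICI and 0.02 (-0.48 to 0.52) for Tamo.

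Precision differed between the receptors in the fit without the replicate block, whose spread includes differences by replicate number. For Thra the interval ran from -0.26 to 0.22 in ICI and from -0.38 to 0.10 in Tamo, so that larger changes lie outside it. For Rxra it ran from -0.77 to 0.56 in ICI and from -0.88 to 0.45 in Tamo, and for Vdr from -0.80 to 0.52 and from -0.84 to 0.47. Taken by E2 condition, 0 of 7 passed for ICI and for Tamo without E2 (0.00710% of all genes in each) and with E2 (0% in each). The direct comparison of ICI with Tamo called 0 of 7, against 0% of all genes, with estimates from -0.18 for Rara to 0.12 for Thra. At an unadjusted p under 0.05 there were 0 of 7 in each of these 5 comparisons, against 1.14% to 3.23% of all genes. DESeq2 and limma called 0 in each. None of the tested genes of the receptor, partner and target lists passed for ICI or Tamo over both conditions, nor for E2 over the 4 arms.

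ICI replicate 1 held the lowest Nr3c1 level of the series, 7.41 FPKM, against 18.7 and 12.5 in the other ICI libraries. In ICI_E2 Nr3c1 measured 16.1, 13.0 and 11.7 FPKM. In Tamo_E2 it measured 15.3, 16.8 and 13.1 FPKM and in Tamo 15.0, 17.7 and 9.83. Its difference from NC was -0.06 ± 0.18 in ICI and 0.09 ± 0.18 in Tamo.

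No receptor transcript passed with estradiol either. Over the 4 arms together 0 of 7 passed, against 0.0639% of all genes, with 0 calls by DESeq2, limma or the block. An unadjusted p under 0.05 was reached by 0 of 7, against 2.43% of all genes. The widest estimate was for Vdr, -0.42 ± 0.24 (interval -0.88 to 0.04, unadjusted p = 0.0907), which was higher with E2 in only 3 of 12 pairs. By arm the Vdr estimate was -0.64 in SH, -0.46 in ICI, -0.03 in Tamo and -0.56 in NC. In the ICI arm Vdr measured 0.274, 0.251 and 0.157 FPKM in ICI_E2 and 0.348, 0.323 and 0.279 in ICI. Separation of groups was not compared with that of all genes, so these levels are not read as a result about Vdr.

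Esr1 itself did not differ with E2 beyond the spread between libraries. Its difference was -0.18 ± 0.18 over the 4 arms (interval -0.53 to 0.17), and it was higher with E2 in 4 of 12 pairs. Its estimate was -0.36 in SH, -0.25 in ICI, 0.02 in Tamo and -0.12 in NC. Esrra differed by 0.15 ± 0.13, Nr3c1 by -0.02 ± 0.13, Rara by -0.11 ± 0.12, Rxra by -0.07 ± 0.24 and Thra by -0.07 ± 0.09. Within SH, ICI, Tamo and NC taken alone, E2 called 0 of 7 receptors, against 0% of all genes in each. Contrasts of E2 effects, each treated arm minus NC, also called 0 of 7, against 0% of all genes in each of the 3. In these 7 comparisons 0 of 7 had an unadjusted p under 0.05, against 1.18% to 3.79% of all genes, and DESeq2 and limma called 0.

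**Figure D4:**
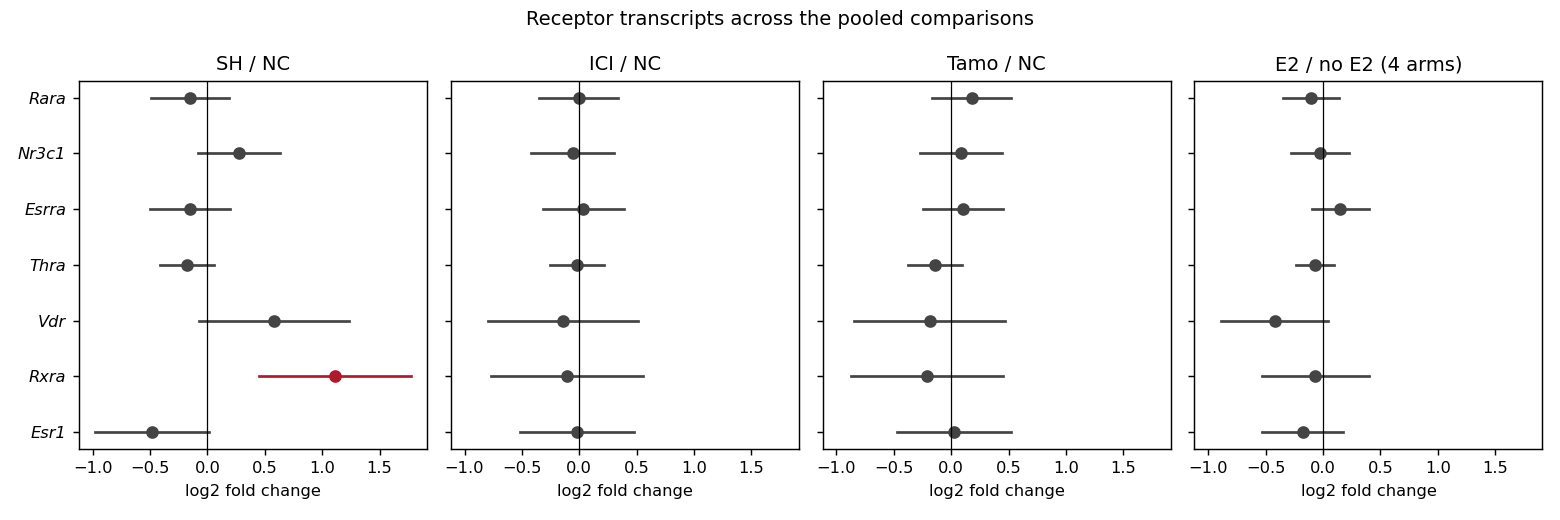
Fitted log2 fold change with its 95% interval for the 7 tested receptors in SH, ICI and Tamo over NC and in E2 over no E2 (red, edgeR adjusted p under 0.05). Rxra in SH, at 1.11, is the single estimate past the threshold, and intervals are widest for Vdr, Rxra and Esr1.

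Receptors also differed by replicate number, in the fit with the replicate block. Replicate 1 was set against replicates 2 and 3, and replicate 3 against replicates 1 and 2, within groups, comparisons chosen after the values were seen. Rara was lowest in replicate 1 in 8 of 8 groups. It had 11.8 to 14.6 FPKM (median 12.3) in the replicate 1 libraries, 15.6 to 24.9 (median 18.2) in the replicate 2 libraries and 13.4 to 19.9 (median 16.6) in the replicate 3 libraries. The difference of replicate 1 from the others was -0.50 ± 0.06 (edgeR adjusted p = 7.14e-06). In that comparison Vdr was higher by 0.59 ± 0.17 (adjusted p = 0.00814) and Esr1 by 0.40 ± 0.13 (adjusted p = 0.022), so 3 of 7 passed, against 40.5% of all genes, a like share.

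The low receptors were lowest in replicate 3. Vdr was lowest there in 7 of 8 groups, Rxra and Esr1 in 6 of 8 each and Nr3c1 in 6 of 8. Rxra had 0.075 to 0.561 FPKM (median 0.152) in the replicate 3 libraries, 0.184 to 0.697 (median 0.286) in the replicate 1 libraries and 0.283 to 0.664 (median 0.351) in the replicate 2 libraries. The difference of replicate 3 from the others was -0.84 ± 0.17 for Rxra (edgeR adjusted p = 0.0011), -0.83 ± 0.18 for Vdr (0.00165) and -0.62 ± 0.14 for Esr1 (0.00228), so 3 of 7 passed, against 30.8% of all genes. Nr3c1 differed by -0.33 ± 0.12 (adjusted p = 0.0532). Over all genes the same difference had a median of 0.04 in the 3524 genes with the shortest spans and -0.07 in the 3524 with the longest, 42.1 kb or more, which include these 4 receptors and Rara. The part of gene length in the receptor values was not tested, and the labels do not say what a replicate number marks.

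**Figure D5:**
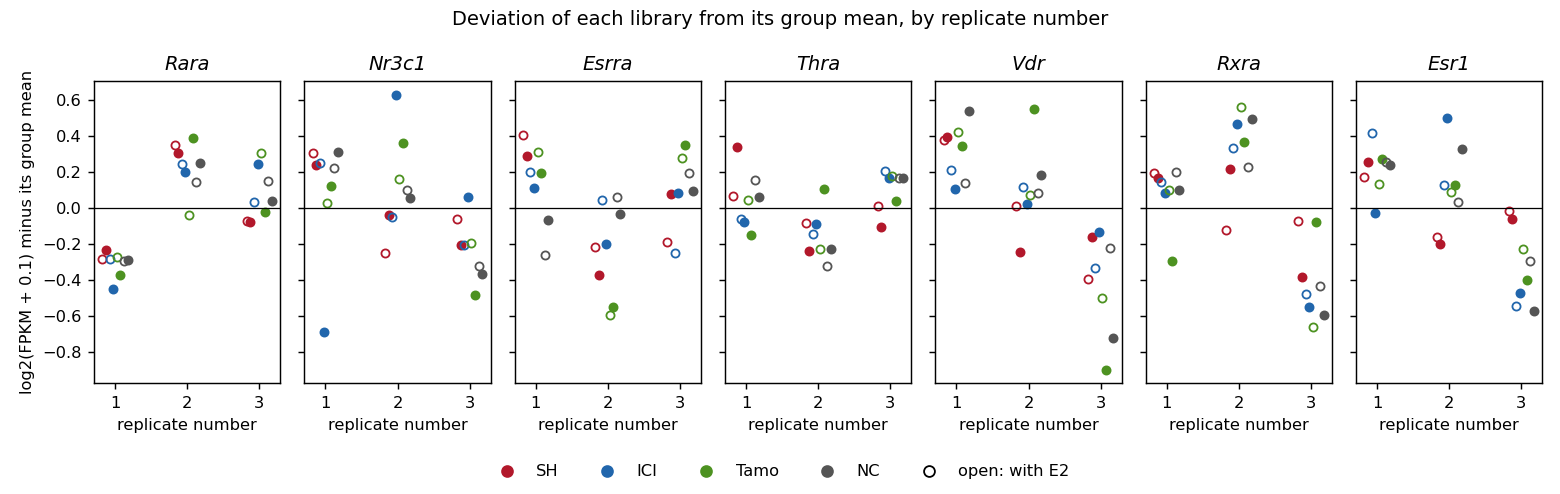
Deviation of each library from the mean of its group in log2(FPKM + 0.1) for the 7 tested receptors, by replicate number (colour, arm; open, with E2). Rara lies below its group mean in all 8 replicate 1 libraries, and Vdr, Rxra and Esr1 lie below theirs in all 8 replicate 3 libraries.

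Some of the receptors varied together within groups. After subtraction of group means, log2(FPKM + 1) correlated at 0.73 between Esr1 and Vdr and 0.72 between Esr1 and Rxra over the 24 libraries. It correlated at 0.67 between Esr1 and Nr3c1 and 0.60 between Nr3c1 and Vdr. The value was 0.53 between Rxra and Vdr and 0.50 between Nr3c1 and Rxra. Rara was not part of this, at -0.38 with Esr1, -0.08 with Rxra and -0.35 with Vdr. Rxra and Thra were opposed, at -0.58. Libraries of one number share whatever the number marks, so these values describe the series.

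The genes most like each receptor over the 24 libraries, by Pearson correlation of log2(FPKM + 1) among 11461 protein-coding genes, were as follows. For Rxra they were Tnfsf4 (r = 0.92, Spearman 0.89) and Chrnb1 (0.92, 0.91). For Rara they were Nckap5l (0.93, 0.92) and Pmm2 (0.90, 0.80). Vdr was most like 5730455P16Rik (0.89, 0.80) and Cyld (0.88, 0.81), and Esr1 most like Crebrf (0.87, 0.83) and Gpr107 (0.86, 0.82). Nr3c1 was most like Fchsd1 (0.81, 0.78) and Sft2d2 (0.80, 0.84), and Esrra most like Tmem208 (0.80, 0.76) and Emc7 (0.80, 0.78). Thra had the weakest likeness, with Zbtb3 (0.71, 0.74) and Socs5 (0.69, 0.71). The points share depth, arm and replicate number, and no test was made of these values.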

How the data were processed

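The authors deposited 1 table with FPKM values and counts per gene for 24 libraries. The submitters' processing notes name cutadapt, HISAT2 and the build GRCm38. The program that made the counts is not given in the sources used here. Low deposited counts pile up at multiples of 4, so all were treated as estimated counts. TMM scaling gave factors of 0.960 to 1.06, edgeR 4.0.16 was run with 1 coefficient per group and no block, and p-values were adjusted over all 14094 genes. SE was derived from the fold change and its F statistic. The fit was tested on simulated data. Libraries with the same number deviated together (80 of 84 correlations over 0.1, lowest -0.03), and in every pair for all comparisons except E2 over 4 arms and ICI against Tamo. Where calls changed, the blocked value is therefore printed. The members, the gene lists and the tests were chosen with earlier results of these data known. Named genes were the members, up to 4 passing genes per list by size of change, receptors of at least 1 FPKM and the 2 genes most like each tested member. Genes added by the block, and neighbours of the members, were named after their values were seen. In lists, 2 symbols were not matched, and 1 passing gene is not reported here. Alternatives used DESeq2 1.42.0, limma 3.58.1 on log2(FPKM + 1) and log2(FPKM + 0.1), other filters, library subsets and each library left out. Counts divided by 4 and replicates 1 and 2 alone were chosen after seeing the data.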

Additional observations from a re-analysis of the deposited data

How the results depend on the processing

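The number of tested receptors that passed stayed at 0 under every alternative run for ICI, Tamo and E2, pooled or by condition, for ICI against Tamo and for the differences of E2 effects. For SH over both conditions, 1 in the fit reported, it was 2 with the replicate block, with or without counts divided by 4, 0 with a filter of 1 FPKM (which removes Rxra, Vdr and Esr1), 0 on replicates 2 and 3 alone, and 0 to 1 on leaving out single libraries. For SH without E2, 0 in the fit reported, it was 1 with either blocked fit. For SH with E2, also 0, it was 1 with either blocked fit and with limma on log2(FPKM + 1). For any group, 0, it was 2 with either blocked fit and 1 with DESeq2 and with limma on log2(FPKM + 1). The exact Esr1 difference was -0.43 to -0.20 on leaving out single libraries and -0.28 by the sign-flip test over pairs as a replicate block (exact p = 0.156, smallest possible 0.0312).

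Of 989 alternative values for single receptors in the 4 pooled comparisons, 926 kept direction and side of the threshold and 56 changed sign, 0 of them in SH. None of those that changed sign had passed, and the cause was not tested. On replicates 2 and 3 alone these were, for ICI, Esr1 at 0.014, Esrra at -0.118, Nr3c1 at 0.155, Rara at 0.026 and Thra at 0.07, and for Tamo, Esrra at -0.086. On replicates 1 and 2 alone they were Esr1 for ICI at 0.03 and for Tamo at -0.033. With limma on log2(FPKM + 0.1), Nr3c1 for E2 was 0.001. On leaving out single libraries the ICI values ran from -0.204 to 0.133 for Esr1, -0.022 to 0.095 for Esrra, -0.236 to 0.082 for Nr3c1, -0.074 to 0.094 for Rara, -0.301 to 0.084 for Rxra, -0.312 to 0.044 for Vdr and -0.092 to 0.033 for Thra. The Tamo values ran from -0.118 to 0.125 for Esr1, -0.001 to 0.225 for Esrra and -0.37 to 0.023 for Vdr. The E2 values ran from -0.094 to 0.065 for Nr3c1 and -0.196 to 0.031 for Rxra. Intervals were widest for Vdr, Rxra and Esr1, which also had the lowest counts and called differences by replicate number, and the part of each was not tested. The blocked fit raised the number of genes called in SH over NC to 4704, against 2824 without it.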
